A study of Homo sapiens with 22 samples.

Results

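A set of 10 nuclear genes that encode parts of the mitochondrial import route and the chaperones and proteases of the matrix was described across 22 RNA-seq libraries of RWPE1 cells, an immortalised human prostate epithelial line. They were chosen by name and make up 10 of the 48648 genes with a symbol of their own in the deposited table. The 10 genes were TOMM20, TOMM40, TIMM44, HSPA9, GRPEL1, HSPD1, HSPE1, TRAP1, LONP1 and CLPP. All 10 passed the filter on low values, and all 10 lay above its floor in every library.

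The cells carried an empty vector, an altered pTRIPZ construct (Vector, 6 libraries), or overexpressed wild-type NKX3.1 (NKX3.1, 6 libraries), NKX3.1 with the R52C substitution (R52C, 6 libraries) or NKX3.1 with the T164A substitution (T164A, 4 libraries). NKX3.1 is a homeodomain protein of the prostate epithelium. Every title named paraquat, a compound that produces superoxide by redox cycling, and no untreated library was among those analysed here, which leaves paraquat without a comparison. The treatment tag was present on 1 of the 4 T164A libraries, and the text that describes the design does not name T164A. The labels give no paraquat dose or time and leave unsaid whether a group's libraries stem from separate cultures or clones. The p-values then measure the spread of these libraries alone, which may be technical.

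Most mitochondrial proteins are made in the cytosol and enter through the TOM complex of the outer membrane, in which TOMM20 is a receptor for targeting sequences and TOMM40 forms the channel. TIM23 carries matrix proteins across the inner membrane, where TIMM44 tethers the Hsp70 motor HSPA9 (mortalin) and GRPEL1 exchanges its nucleotide. Imported proteins fold on HSPA9, on the HSPD1 and HSPE1 chaperonin (Hsp60 and its lid, Hsp10) and with TRAP1, the Hsp90 of mitochondria, and damaged ones are degraded by LONP1 and by CLPP, the proteolytic core of the ClpXP protease. HSPA9 and HSPD1 are classical targets of the mitochondrial unfolded protein response, in which damage in the matrix raises transcription of such genes.

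HSPD1 and HSPE1 are transcribed away from each other from a common promoter, and the whole stretch between their starts is shown because both genes of the chaperonin read from it. It holds 104 bases on the plus strand at chr2:197500275-197500378 of GRCh38.p14 (RefSeq), with the HSPD1 start to its left on the minus strand and the HSPE1 start to its right on the plus strand. Capitals mark a GC box, GGGCGG or its complement.
HSPD1 and HSPE1, between the starts: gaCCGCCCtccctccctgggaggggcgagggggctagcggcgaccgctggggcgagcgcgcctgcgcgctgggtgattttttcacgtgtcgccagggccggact
A second annotated start of HSPD1 has paired heat shock units before it, the sequence to which HSF1 binds, at chr2:197500061-197500090 (minus strand). Capitals mark overlapping matches to TTCNNGAA and GAANNTTC.
HSPD1, second start: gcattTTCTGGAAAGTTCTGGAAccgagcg
TOMM20 is shown because its window matched the motifs of 2 regulators of mitochondrial genes, at chr1:235128838-235129087 (minus strand). Capitals mark first the motif of nuclear respiratory factor 1 (NRF1) and then CCGGAAGT, that of ETS factors such as GABP.
TOMM20: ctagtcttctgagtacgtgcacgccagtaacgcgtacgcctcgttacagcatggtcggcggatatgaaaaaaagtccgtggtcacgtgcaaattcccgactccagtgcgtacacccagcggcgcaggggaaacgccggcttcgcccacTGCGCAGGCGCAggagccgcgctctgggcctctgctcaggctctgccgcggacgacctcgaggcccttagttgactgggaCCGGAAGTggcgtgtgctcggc
HSPA9 is shown because its RNA moved against the other chaperones, at chr5:138575402-138575651 (minus strand). Capitals again mark GC boxes.
HSPA9: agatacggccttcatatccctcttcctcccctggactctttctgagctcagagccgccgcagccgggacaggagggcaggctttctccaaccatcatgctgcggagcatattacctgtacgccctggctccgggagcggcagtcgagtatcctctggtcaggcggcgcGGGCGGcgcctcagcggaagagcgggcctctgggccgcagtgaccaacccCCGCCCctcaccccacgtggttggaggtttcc

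RefSeq windows from 250 bases before to 50 after a start were matched for 8 of the 10 genes, 10 windows in all (those of HSPD1 and HSPE1 share 204 bases), and 8 motifs were searched on both strands. The NRF1 motif was found in the windows of TOMM20 and LONP1, that is in 2 of 10, and in 0.945% of all 35116 windows. GGGCGG was found in 8 of 10 windows and in 45% of all. GAANNTTC lay in an HSPD1 window and in 6.77% of all, and TTCNNGAA in windows of HSPD1 and HSPA9 and in 7.74% of all. CCGGAAGT was found for TOMM20 alone among the 10 windows (4.14% of all), and the YY1 motif AANATGGC for TIMM44 alone (6.58%). TGATGCAA, a C/EBP-ATF composite element, and TCAAGGTCA, bound by estrogen-related receptors, were in none of the 10 windows and in 0.866% and 0.353% of all. A match describes letters and not a bound site.

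The markers of the R52C libraries went against the labelled cell line, and group names below stand for the libraries so labelled. Levels are on the normalized log2 scale of the table. The 10 basal epithelial markers summed to 13.28 to 15.17 per 1000 of signal in Vector, 10.7 to 11.66 in NKX3.1 and 6.818 to 7.278 in T164A, but to 0.073 to 0.0962 in R52C, where 7 of the 10 had a mean above the floor. The 12 prostate luminal markers summed to 0.632 to 1.312, 3.352 to 4.141, 14.26 to 14.59 and 0.2032 to 0.2156 per 1000 in Vector, NKX3.1, R52C and T164A. T164A also departed from Vector in other markers. Mean NCAM1 was 9.49 against 1.79, INSM1 6.24 against 0.105, COL3A1 6.68 against -0.70 and LUM 5.04 against -0.28. Of 5 neuroendocrine markers tested, 3 were called higher and 1 lower (limma, below). Of 5 fibroblast and endothelial ones, 3 were higher and 2 lower. Over all genes tested the shares were 40.6% and 41.6%. KRT8 and KRT18 were 10.37 and 10.21 against 9.97 and 9.16, unlike the luminal sum. Basal keratins and TP63 define RWPE1, and KRT5 was between 0.55 and 6.95 in R52C against 15.44 or more in each other library. From 90 genes at or above 8 in R52C and under 3 in T164A, none of them among the 10, the share of R52C-like RNA was estimated at 5.30 to 10.2% in Vector and 24.9 to 30.9% in NKX3.1. The choice of these genes fixes a low share in T164A, so none is given there. Vector replicates 1 to 3 and 4 to 6 also lay apart for several genes, and so did those of R52C. In R52C replicates 1 to 3 KRT5 lay between 6.85 and 6.95 and TP63 between 2.47 and 2.98, against 0.55 to 1.72 and -0.71 to 0.17 in replicates 4 to 6, whose mean served as the R52C profile. HSPE1 lay between 10.95 and 10.98 in the former and 11.05 and 11.11 in the latter. The submitters' processing notes list mm9, a mouse genome, as the only build for T164A and mm9 with GRCh37 for the rest. Genotype, cell identity, processing and paraquat exposure cannot be told apart in comparisons with R52C or T164A, and in bulk RNA fewer cells of a type and less RNA per cell cannot be told apart either.

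Together the 10 genes took 1.516 to 1.675 per 1000 of the summed signal in Vector and 1.608 to 1.673 in NKX3.1, ranges that overlapped. They took 2.268 to 2.324 per 1000 in R52C and 2.511 to 2.541 in T164A, above every Vector and NKX3.1 library. Transcripts of mitochondrial DNA are part of the same summed signal, and their share was lower in R52C and T164A. They made up 18.09 to 20.52% of signal in Vector and 17.09 to 19.54% in NKX3.1, against 7.973 to 8.642% for R52C and 9.103 to 9.305% for T164A. The summed signal itself was lower in every R52C and T164A library than in every Vector and NKX3.1 library. The higher share of the 10 genes thus comes in part from a smaller total and is not independent of the mitochondrial share. Their share without mitochondrial transcripts was not tested.

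**Figure D1:**
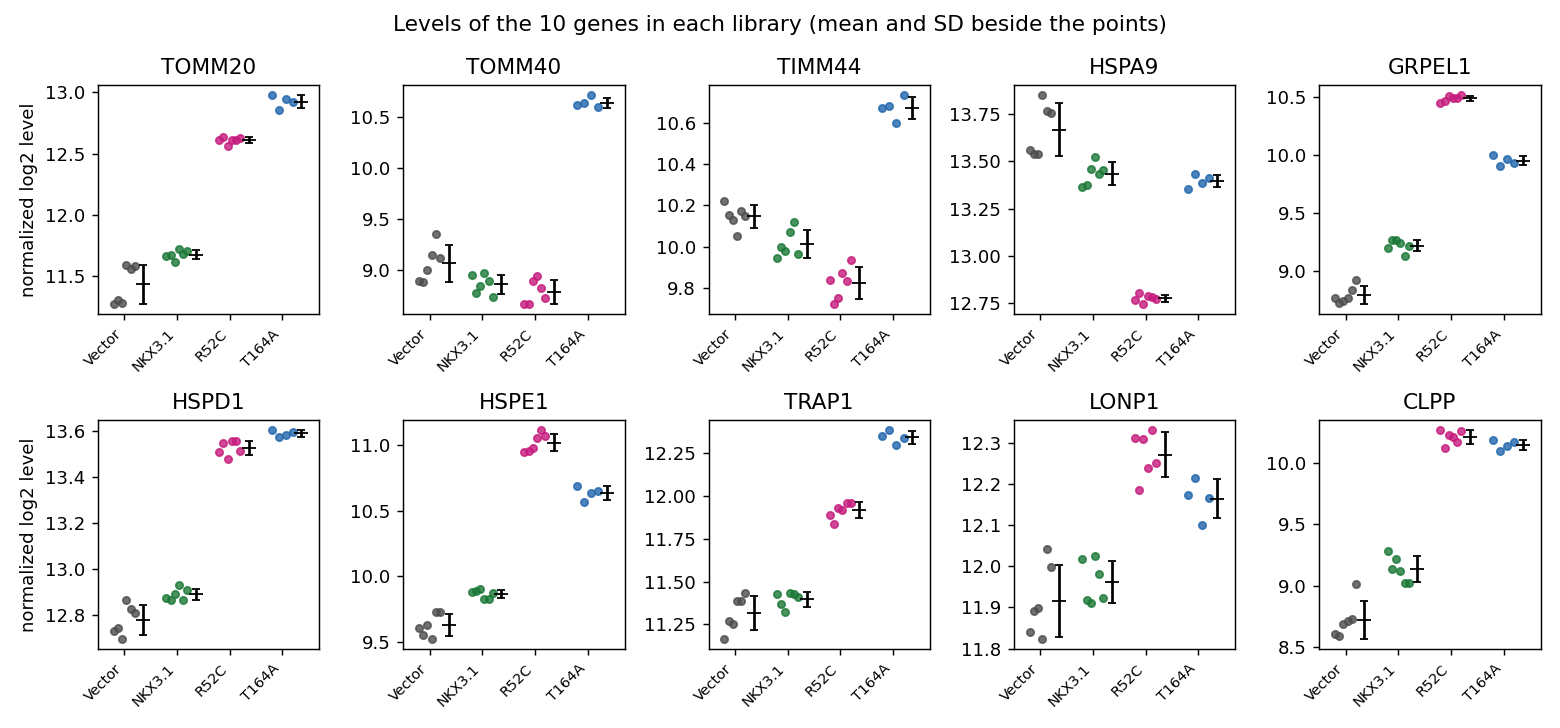
Normalized log2 level of each of the 10 genes (y axis, scaled per gene) in each library of the 4 groups (x axis), with the mean and SD beside the points. HSPA9 is lowest in R52C, TOMM40 stands apart in T164A, and TOMM20 and HSPA9 split the Vector libraries into a pair of clusters.

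TOMM20, the outer membrane receptor, rose with each construct. Its lowest, median and highest levels were 11.27, 11.43 and 11.59 in Vector, 11.61, 11.67 and 11.72 in NKX3.1, and 12.56, 12.61 and 12.63 in R52C, and its 4 values in T164A were 12.98, 12.86, 12.95 and 12.92. No 2 groups overlapped. Against Vector the log2 difference was 0.24 (SE 0.047, adjusted p = 0.000142) in NKX3.1, 1.18 (SE 0.047, adjusted p = 1.47e-18) in R52C and 1.49 (SE 0.053, adjusted p = 2.01e-19) in T164A, the last a 2.82-fold higher level. Adjusted p-values here and below are from limma, with Benjamini-Hochberg adjustment over 21325 genes and a threshold of 0.05. The NKX3.1 difference was 0.39 against Vector replicates 1 to 3 and 0.10 against replicates 4 to 6.

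TOMM40, the channel, did not follow its receptor. It ran from 8.88 through a median of 9.05 to 9.35 in Vector, from 8.73 through 8.87 to 8.97 in NKX3.1 and from 8.67 through 8.77 to 8.94 in R52C. The T164A values were 10.62, 10.64, 10.71 and 10.60. T164A alone stood apart, with a level 2.99-fold above Vector (log2 difference 1.58, SE 0.074, adjusted p = 9.66e-17). The overlapping NKX3.1 and R52C groups were lower than Vector by log2 differences of -0.20 (SE 0.066, adjusted p = 0.0150) and -0.28 (SE 0.066, adjusted p = 0.000414). The fall in NKX3.1 rested on Vector replicates 4 to 6, since against replicates 1 to 3 the difference was -0.06 with an adjusted p of 0.450, and without Vector replicate 5 it was -0.15 with an adjusted p of 0.0530.

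The receptor and the channel thus changed in their proportion in NKX3.1 and R52C, with a limit for NKX3.1 given with the subtraction of R52C-like RNA below. The within-library log2 ratio of TOMM20 to TOMM40 was 2.37 ± 0.10 (SD, n = 6) in Vector, 2.82 ± 0.10 (n = 6) in NKX3.1, 3.83 ± 0.13 (n = 6) in R52C and 2.28 ± 0.07 (n = 4) in T164A. It was higher than in Vector by 0.45 in NKX3.1 and by 1.46 in R52C (exact permutation tests, two-sided, p = 0.00217 each, the smallest that 6 against 6 libraries allow, adjusted p = 0.00472 over 48 tests of 8 ratios). In T164A it differed from Vector by -0.09 (SE 0.055, exact permutation p = 0.2), with overlapping libraries.

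TIMM44, the anchor of the motor, was lower in NKX3.1 and R52C and higher in T164A. It ran from 10.05 through 10.15 to 10.22 in Vector, from 9.94 through 9.99 to 10.12 in NKX3.1 and from 9.72 through 9.83 to 9.94 in R52C, with 10.67, 10.68, 10.60 and 10.73 in T164A. NKX3.1 overlapped Vector, whereas R52C lay below it and T164A above. The log2 differences from Vector were -0.13 (SE 0.039, adjusted p = 0.00703), -0.32 (SE 0.039, adjusted p = 2.56e-08) and 0.52 (SE 0.044, adjusted p = 1.97e-11). Against Vector replicates 4 to 6 alone the first was -0.11, with an adjusted p of 0.0633.

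HSPA9, the motor itself, was the member of the 10 that was lower than Vector in every other group. Its lowest, median and highest levels were 13.54, 13.66 and 13.85 in Vector, 13.37, 13.44 and 13.53 in NKX3.1 and 12.75, 12.78 and 12.80 in R52C, and 13.36, 13.43, 13.38 and 13.41 in T164A. Vector lay above each other group, and NKX3.1 and T164A overlapped. The log2 differences from Vector were -0.23 (SE 0.043, adjusted p = 8.46e-05) in NKX3.1, -0.89 (SE 0.043, adjusted p = 1.16e-16) in R52C and -0.27 (SE 0.049, adjusted p = 1.24e-05) in T164A. In NKX3.1 the difference was -0.11 against Vector replicates 1 to 3 and -0.36 against replicates 4 to 6.

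GRPEL1, the exchange factor of HSPA9, went the opposite way. It ran from 8.72 through 8.77 to 8.93 in Vector, from 9.13 through 9.23 to 9.27 in NKX3.1 and from 10.44 through 10.49 to 10.51 in R52C, with 9.99, 9.90, 9.96 and 9.93 in T164A. No 2 groups overlapped. GRPEL1 was 1.34-fold higher in NKX3.1 (log2 0.43, SE 0.035, adjusted p = 2.22e-10), 3.23-fold in R52C (log2 1.69, SE 0.035, adjusted p = 7.49e-25) and 2.22-fold in T164A (log2 1.15, SE 0.039, adjusted p = 1.01e-19).

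The log2 ratio of HSPA9 to GRPEL1 was accordingly 4.88 ± 0.11 (SD, n = 6) in Vector, 4.22 ± 0.07 (n = 6) in NKX3.1, 2.29 ± 0.04 (n = 6) in R52C and 3.45 ± 0.07 (n = 4) in T164A. The differences from Vector were -0.66, -2.58 and -1.43, with no overlap (exact permutation p = 0.00217, 0.00217 and 0.00952, the smallest each design allows). The HSPA9 ratios carry a doubt about read assignment, given with the pseudogenes below. A limit for NKX3.1 is given with the subtraction of R52C-like RNA below.

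HSPD1, the chaperonin barrel, rose in each group. It ran from 12.70 through 12.78 to 12.86 in Vector, from 12.87 through 12.88 to 12.93 in NKX3.1 and from 13.48 through 13.53 to 13.56 in R52C, with 13.60, 13.57, 13.58 and 13.60 in T164A. NKX3.1 lay just above Vector without overlap, and R52C and T164A lay above both. The log2 differences from Vector were 0.11 (SE 0.027, adjusted p = 0.00135), 0.75 (SE 0.027, adjusted p = 1.02e-19) and 0.81 (SE 0.030, adjusted p = 4.48e-19). The first was 0.06 against Vector replicates 4 to 6, with an adjusted p of 0.0621, and 0.03 with an adjusted p of 0.475 when libraries were shifted to the same median.

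HSPE1, the lid, rose further than HSPD1 in all 3 groups. It ran from 9.53 through 9.62 to 9.73 in Vector, from 9.82 through 9.88 to 9.90 in NKX3.1 and from 10.95 through 11.01 to 11.11 in R52C, with 10.69, 10.56, 10.63 and 10.65 in T164A. No 2 groups overlapped, and R52C was highest. The log2 differences from Vector were 0.24 (SE 0.038, adjusted p = 1.37e-05), 1.39 (SE 0.038, adjusted p = 2.92e-22) and 1.003 (SE 0.042, adjusted p = 9.65e-18). The log2 ratio of HSPD1 to HSPE1 fell by 0.12 in NKX3.1, by 0.64 in R52C and by 0.19 in T164A against 3.15 ± 0.10 (SD, n = 6) in Vector (exact permutation p = 0.0108, 0.00217 and 0.00952). After quantile normalization the NKX3.1 difference of the ratio was -0.05, with an adjusted p of 0.375. The genes thus differed in their RNA although each has an annotated start beside the one stretch shown above. HSPD1 also has the second start, and the pseudogene signal given next was not added to this ratio. The subtraction of R52C-like RNA below sets a limit for this ratio in NKX3.1.

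HSPA9, HSPD1 and HSPE1 have processed pseudogenes, near-identical copies between which the authors' counting could split reads. Pseudogene entries above the floor numbered 1 for HSPA9, 4 for HSPD1 and 5 for HSPE1. They held a median of 16.4%, 16.9% and 18.5% of the HSPA9 and pseudogene signal in Vector, NKX3.1 and R52C but 3.60% in T164A. The shares were 28.8%, 29.8%, 33.1% and 12.2% for HSPD1 and 39.2%, 41.8%, 43.5% and 22.8% for HSPE1, in the same order. T164A lay below the other groups for each gene, so levels of these 3 genes in T164A are uncertain against the rest. With pseudogene signal added to the gene, an alternative chosen after seeing the data, the T164A differences from Vector were -0.48 for HSPA9, 0.51 for HSPD1 and 0.65 for HSPE1. Under the same alternative HSPD1 in R52C against T164A turned from -0.06 to 0.32 and HSPA9 in NKX3.1 against T164A from 0.04 to 0.25, and both were then called.

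**Figure D2:**
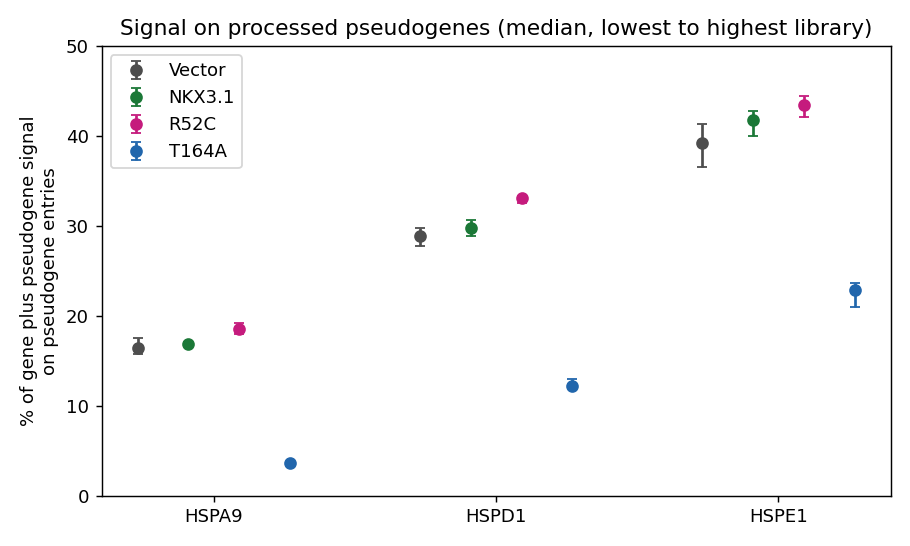
Percent of the summed signal of a gene and its pseudogenes that lay on pseudogene entries (y axis) for HSPA9, HSPD1 and HSPE1 in the 4 groups, as the median with bars from the lowest to the highest library. T164A lies lowest for each gene, at 3.60%, 12.2% and 22.8%.

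TRAP1, the mitochondrial Hsp90, rose in R52C and T164A. It ran from 11.17 through 11.33 to 11.43 in Vector, from 11.32 through 11.42 to 11.43 in NKX3.1 and from 11.84 through 11.93 to 11.96 in R52C, with 12.35, 12.39, 12.30 and 12.34 in T164A. Vector and NKX3.1 overlapped, and T164A was highest. The log2 differences from Vector were 0.60 (SE 0.037, adjusted p = 1.98e-14) in R52C and 1.03 (SE 0.041, adjusted p = 2.91e-18) in T164A. In NKX3.1 the difference was 0.08 (SE 0.037, adjusted p = 0.0783), with a 95% interval from 0.01 to 0.16. It was 0.17 and called against Vector replicates 1 to 3 and -0.0036 against replicates 4 to 6, and it was also called without Vector replicate 4, 5 or 6 or without NKX3.1 replicate 3, and after quantile normalization (0.13, adjusted p = 0.00163).

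LONP1, an ATP-dependent protease that is complete in itself, had the smallest of the rises in R52C and in T164A. It ran from 11.82 through 11.89 to 12.04 in Vector, from 11.91 through 11.95 to 12.02 in NKX3.1 and from 12.19 through 12.28 to 12.33 in R52C, with 12.17, 12.22, 12.10 and 12.17 in T164A. The log2 differences were 0.36 (SE 0.036, adjusted p = 7.68e-10) in R52C, 0.25 (SE 0.040, adjusted p = 3.17e-06) in T164A and 0.05 (SE 0.036, adjusted p = 0.326, 95% interval -0.03 to 0.12) in NKX3.1. Against Vector replicates 1 to 3 alone the last was 0.09 and called (adjusted p = 0.0470). The T164A difference was 0.07 with an adjusted p of 0.0755 when libraries were shifted to the same median.

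CLPP, which degrades proteins that the unfoldase CLPX feeds to it, changed more. It ran from 8.60 through 8.70 to 9.02 in Vector, from 9.02 through 9.13 to 9.29 in NKX3.1 and from 10.12 through 10.22 to 10.27 in R52C, with 10.18, 10.09, 10.13 and 10.17 in T164A. R52C and T164A overlapped, far above Vector. CLPP was 1.33-fold higher than Vector in NKX3.1 (log2 0.41, SE 0.056, adjusted p = 1.35e-06), 2.80-fold in R52C (log2 1.48, SE 0.056, adjusted p = 4.35e-19) and 2.68-fold in T164A (log2 1.42, SE 0.063, adjusted p = 2.69e-17). Its partner CLPX was not called in NKX3.1 (log2 0.05, adjusted p = 0.231), rose in R52C (0.52, adjusted p = 5.24e-14) and fell in T164A (-0.40, adjusted p = 1.77e-10). The log2 ratio of LONP1 to CLPP was 3.19 ± 0.13 (SD, n = 6) in Vector. It fell by 0.36 in NKX3.1, by 1.13 with R52C and by 1.17 with T164A (exact permutation p = 0.00217, 0.00217 and 0.00952). R52C and T164A differed in it by 0.04 (exact permutation p = 0.314), and by 0.08 without T164A replicate 2 (adjusted p = 0.0486). For NKX3.1 the limit from the subtraction of R52C-like RNA below holds here too.

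**Figure D3:**
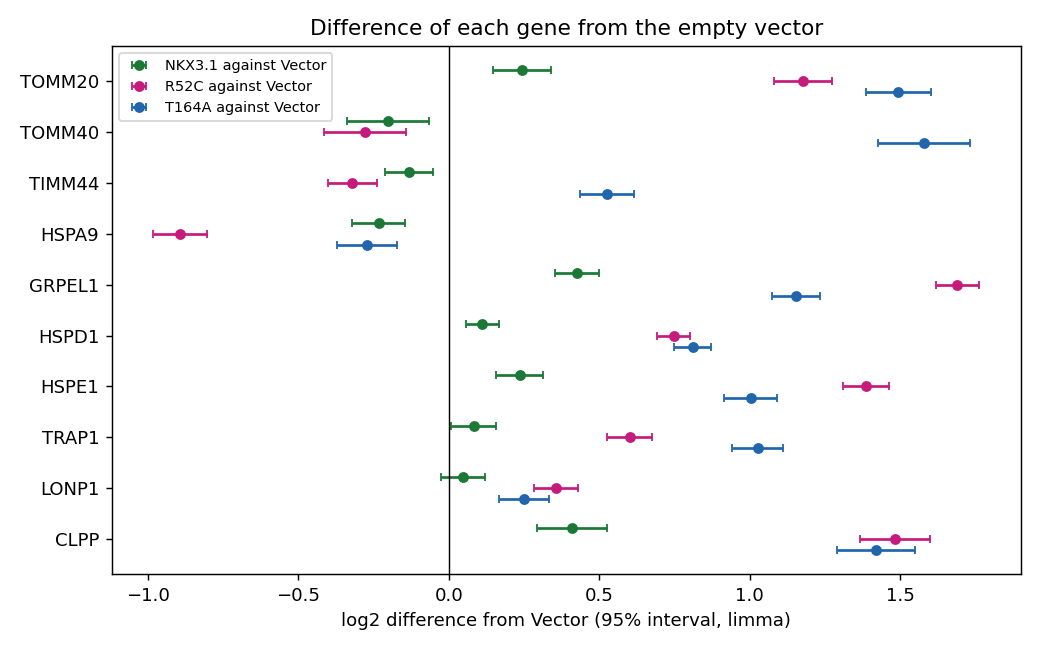
Log2 difference from Vector (x axis) of the 10 genes (y axis) in NKX3.1, R52C and T164A, with 95% intervals from limma. HSPA9 lies left of 0 in each group, TOMM40 and TIMM44 lie right of 0 in T164A only, and the NKX3.1 points lie nearest to 0 for all 10 genes.

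Counted together in NKX3.1 against Vector, 5 of the 10 genes were called higher and 3 lower, where 21.6% of all genes tested were called higher and 19.4% lower. In R52C 7 were higher and 3 lower, with a background of 42.2% and 41.6%. In T164A 9 were higher and 1 lower, with 40.6% and 41.6%. The median log2 difference of the 10 was 0.10, 0.67 and 1.02 in the 3 comparisons, beside -0.01, 0.01 and -0.04 over all genes tested. These comparisons share the Vector libraries, and a call by itself was common in R52C and T164A, where 83.8% and 82.2% of all genes tested were called either way. Shifting libraries to the same median moved every difference by -0.09, 0.13 and -0.18 in the 3 comparisons, and in NKX3.1 turned TRAP1 and LONP1 to -0.0033 and -0.04.

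The R52C-like RNA described above did not overlap between NKX3.1 and Vector, and lay higher in NKX3.1. Each of the 5 genes called higher there was also without overlap, as were 12.3% of all genes tested. When the mean profile of R52C replicates 4 to 6 was subtracted from the NKX3.1 and Vector libraries in proportion to that share, none of the 10 genes was called higher and 3 were called lower. GRPEL1 went from 0.43 to -0.42 (adjusted p = 0.00948), HSPE1 from 0.24 to -0.55 (adjusted p = 0.000240) and HSPD1 from 0.11 to -0.16 (adjusted p = 0.0288). CLPP and TOMM20 went to -0.16 and -0.22 and were not called. With the share taken from the median, TOMM20 was -0.27 and called (adjusted p = 0.0335), and 4 of the 10 were lower. Of all 15841 genes then tested, 331 were called higher and 2290 lower. HSPA9, the clearest fall, went to -0.10 with an adjusted p of 0.226. TOMM40 kept its value at -0.21 but was not called, with an adjusted p of 0.0990. TOMM20 then stood beside it at -0.22, so the receptor no longer rose against the channel. HSPA9, HSPD1 and LONP1 (-0.06) then fell less than GRPEL1, HSPE1 and CLPP, opposite to the NKX3.1 ratios of these pairs given above. The ratios themselves were not tested after subtraction. Over 15970 genes fitted both ways, 3022 were called higher and 4571 lower before the subtraction, and 308 and 2029 after it. The subtraction takes the share to be a plain mixture with R52C RNA, which was not tested.

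**Figure D4:**
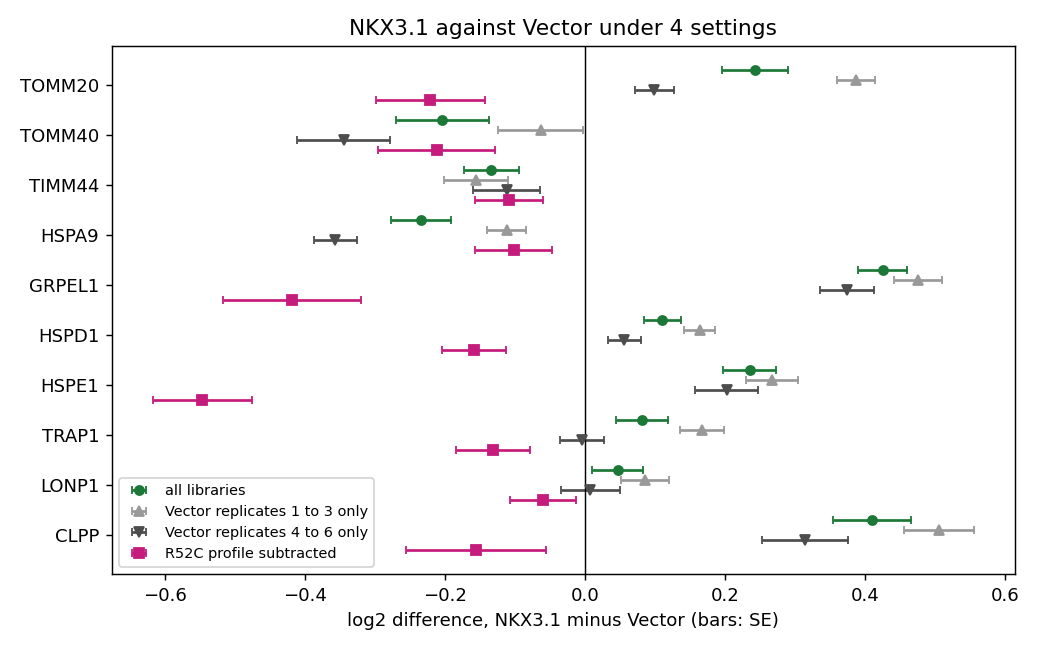
Log2 difference of NKX3.1 minus Vector (x axis, bars are SE) for the 10 genes (y axis) with all libraries, with Vector replicates 1 to 3 or 4 to 6 only, and after subtraction of the R52C profile. The 5 genes called higher with all libraries lie left of 0 after subtraction, from -0.16 to -0.55.

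The constructs were also compared with each other. In NKX3.1 against R52C, 2 of the 10 genes were called higher and 7 lower, with 39.2% and 40.9% of all genes tested. HSPA9 (0.66, SE 0.043, adjusted p = 1.32e-13) and TIMM44 (0.19, SE 0.039, adjusted p = 0.000104) were higher, and TOMM40 differed by 0.07 (SE 0.066, adjusted p = 0.304, 95% interval -0.06 to 0.21). When libraries were shifted to the same median, by -0.22 in this comparison, TIMM44 turned to -0.03. In NKX3.1 against T164A, none was higher and 9 were lower, with 42.3% and 39.6% of all genes, and HSPA9 differed by 0.04 (SE 0.049, adjusted p = 0.456), or by 0.13 and then called with libraries at the same median. TOMM40 was the farthest apart there, at -1.78 (SE 0.074, adjusted p = 8.11e-18). In R52C against T164A, 3 were higher (HSPE1 0.38, GRPEL1 0.54, LONP1 0.11) and 5 lower (TOMM40 -1.86, TIMM44 -0.85, HSPA9 -0.62, TRAP1 -0.43, TOMM20 -0.32), with 38.5% and 45.2% of all genes. CLPP (0.06, adjusted p = 0.350) and HSPD1 (-0.06, adjusted p = 0.0518) were not called. The LONP1 call was lost without T164A replicate 3 (adjusted p = 0.0728) or without R52C replicates 4 to 6 (0.0573), and HSPD1 was called without R52C replicate 4 (0.0469) or 5 (0.0454) or with these groups fitted alone (0.00962). Shifting to the same median added 0.31 to each difference in this comparison and brought TOMM20 to -0.0067 and CLPP, then called, to 0.37.

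Ratios to the chaperones of other compartments do not depend on how a whole library was scaled. They were not tested after subtraction of the R52C profile. HSPA9 fell against HSPA8, the constitutive Hsp70 of the cytosol, by 0.43 in NKX3.1 and by 1.77 in R52C, but rose against it by 0.26 in T164A (exact permutation p = 0.00217, 0.00217 and 0.00952), a rise that was 0.08 with an adjusted p of 0.197 after quantile normalization. Against HSPA5, the Hsp70 of the endoplasmic reticulum, HSPA9 fell by 0.23 in NKX3.1 and by 0.10 in R52C and rose by 1.02 in T164A (exact permutation p = 0.00217, 0.0173 and 0.00952). HSPA5 itself was not called in NKX3.1 (log2 difference 5.50e-05, adjusted p = 0.999) and fell by 0.79 in R52C and by 1.30 in T164A.

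TRAP1 was set against the other Hsp90 proteins in the same way. Against HSP90AA1 of the cytosol its log2 ratio fell by 0.28 in NKX3.1 and by 0.79 in R52C and rose by 0.20 in T164A (exact permutation p = 0.00217, 0.00217 and 0.0190). The last was 0.05 with an adjusted p of 0.524 after quantile normalization, and its adjusted p was 0.0508 without T164A replicate 1 or 4. Against HSP90B1 of the endoplasmic reticulum it fell by 0.48 and 0.77 and rose by 0.75 (exact permutation p = 0.00217, 0.00217 and 0.00952). In all, 46 of the 48 ratio tests passed at an adjusted p of 0.05. No other gene pairs were tested beside them. Against Vector, 83.8% of all single genes tested were called either way in R52C and 82.2% in T164A. The count thus cannot be read as particular to these pairs.

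**Figure D5:**
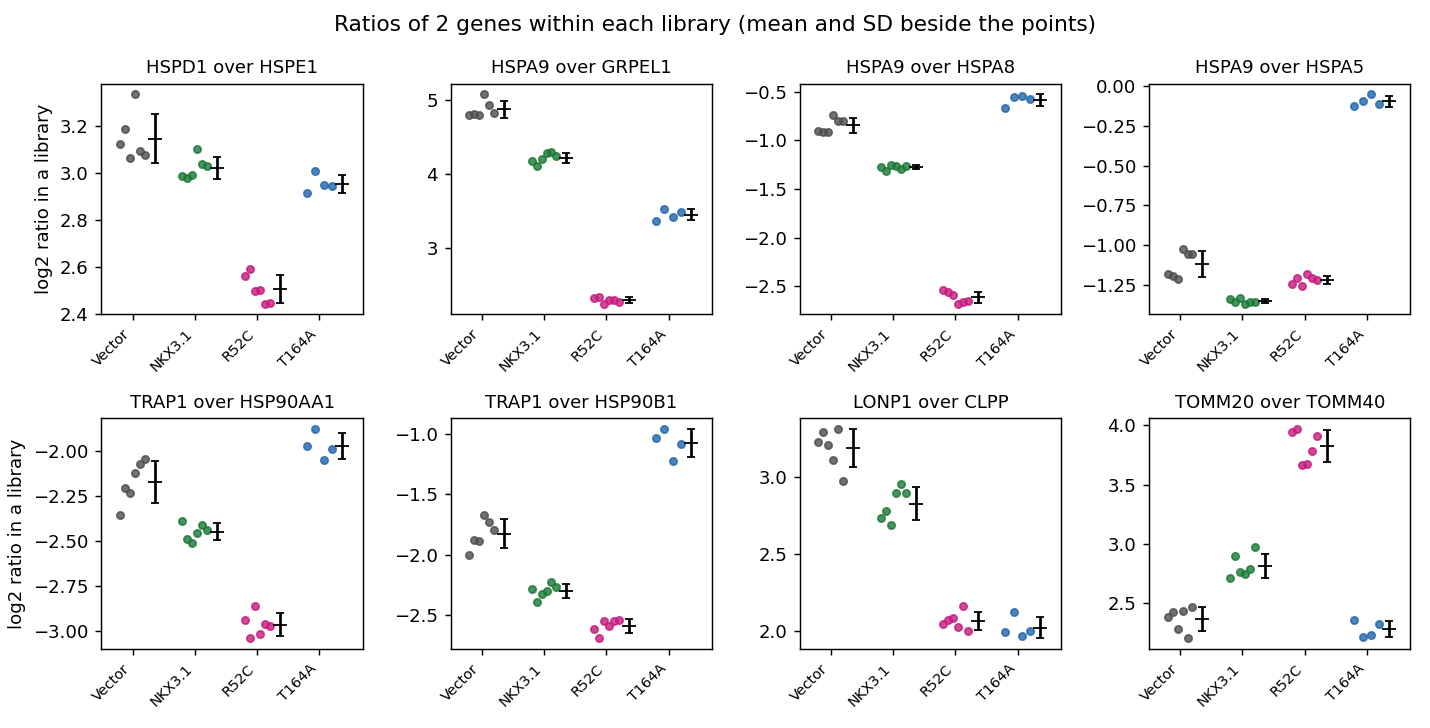
Log2 ratio of 2 genes within each library (y axis, scaled per panel) in the 4 groups (x axis), with the mean and SD beside the points. HSPA9 over GRPEL1 is lowest in R52C, at a mean of 2.29, and TOMM20 over TOMM40 is highest there, at 3.83.

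The import route was followed further in 41 other genes that passed the filter. In NKX3.1 against Vector 20 were called higher and 6 lower, in R52C 31 and 6, and in T164A 27 and 8, with median log2 differences of 0.14, 0.73 and 0.49. Over all genes tested, 21.6% were called higher and 19.4% lower in NKX3.1, 42.2% and 41.6% in R52C, and 40.6% and 41.6% in T164A, and the counts of each smaller list below stand against the same shares. After subtraction of the R52C profile none of the 40 that could still be tested was called higher in NKX3.1, beside 308 of all 15970 genes. Of 8 further outer membrane genes, 5 rose and 1 fell in NKX3.1, 6 rose in R52C, and 6 rose and 1 fell in T164A. TOMM22, the central receptor of TOM, moved most, by 0.55, 1.74 and 2.30 in NKX3.1, R52C and T164A (adjusted p = 7.83e-09, 8.92e-21 and 6.61e-22). SAMM50, which inserts barrel proteins into the outer membrane, rose by 1.10 in R52C and by 1.45 in T164A (adjusted p = 4.41e-17 and 2.22e-18).

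Among 7 inner membrane translocase genes, 6 rose in R52C and 5 rose and 1 fell in T164A. TIMM50, a receptor of TIM23, rose by 0.78 in R52C and by 1.42 in T164A (adjusted p = 1.68e-16 and 7.95e-21), unlike TIMM44, which fell in R52C. The 7 intermembrane space genes held 4 rises in NKX3.1 and 6 each in R52C and T164A. CHCHD4, the oxidoreductase that traps imported cysteine proteins, rose by 0.56, 1.81 and 1.46, and the small chaperone TIMM13 by 0.49, 1.66 and 1.13 (adjusted p of 6.94e-07 or less).

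Partners of HSPA9 were divided. DNAJC15, a J protein of the motor, rose by 1.55 in NKX3.1 and by 3.24 in R52C and fell by 1.67 in T164A (adjusted p = 2.60e-09, 2.42e-17 and 5.12e-10). In T164A its mean of 2.98 lay under the floor of 3, so the size of that fall is uncertain for DNAJC15. PAM16, its regulatory partner, rose by 0.22, 1.05 and 0.68. GRPEL2, the second exchange factor, fell by 0.12, 0.12 and 0.24 (adjusted p = 0.0155, 0.00476 and 1.10e-05), opposite to GRPEL1. The subunits of the presequence peptidase also split in R52C, where PMPCB rose by 0.84 and PMPCA fell by 0.68. Of 7 further proteases, OMA1 of the inner membrane rose by 0.38 in NKX3.1 and by 1.09 in R52C and fell by 0.55 in T164A (adjusted p of 1.60e-07 or less), and HTRA2 of the intermembrane space fell by 0.15 and 0.59 and rose by 0.49.

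Regulators of the stress response were listed together with NRF1 and GABPA, which regulate mitochondrial genes, and the list did not move one way. Of 7 tested, 1 rose and 4 fell in NKX3.1, and 3 rose and 4 fell in R52C and in T164A. Over all genes tested, 21.6% rose and 19.4% fell in NKX3.1, 42.2% and 41.6% in R52C, and 40.6% and 41.6% in T164A. The counts in R52C and T164A thus cannot be read as particular to this list. ATF4, a translation-controlled activator, was not called in NKX3.1 (0.06, adjusted p = 0.225) and rose by 0.73 in R52C and by 1.10 in T164A (adjusted p = 1.46e-16 and 3.30e-19). DDIT3 (CHOP) fell by 0.24, 1.31 and 1.49 (adjusted p = 0.000409, 1.07e-18 and 1.50e-18). CEBPB fell by 0.72, 3.06 and 0.94. HSF1, the factor that binds heat shock elements, fell by 0.23 and 0.83 and rose by 0.13 (adjusted p = 2.05e-05, 2.99e-17 and 0.00550). ATF5, named here after its values were seen because it regulates the mitochondrial response in mammals, rose by 0.15 and 0.76 and fell by 0.62 in T164A (adjusted p = 0.0127, 4.04e-14 and 4.66e-11). NRF1 RNA, whose motif lies in the TOMM20 and LONP1 windows, was not called in NKX3.1 (-0.00040, adjusted p = 0.997) and rose by 0.44 in R52C and by 0.74 in T164A (adjusted p = 1.39e-08 and 5.04e-12).

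Among chaperones outside mitochondria, 5 of 7 cytosolic genes rose and 2 fell in NKX3.1 and in R52C, and 4 rose and 3 fell in T164A. HSP90AA1 rose by 0.36, 1.39 and 0.83. Of 7 genes of the endoplasmic reticulum, 3 rose in NKX3.1, 5 rose and 2 fell in R52C, and 2 rose and 3 fell in T164A. PDIA4, a disulphide isomerase, rose by 0.80, 1.92 and 1.12. Whether the 10 genes moved more than these was not tested.

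Within groups, the genes most like HSPD1 over the 22 libraries, after each group mean was subtracted, were SET (r = 0.92), SF3B14 (0.91), EIF3E (0.90), RPL22 (0.90) and EIF4B (0.90). Of 21324 genes, HSPA9 ranked 30 (r = 0.87) and TOMM20 ranked 83 (r = 0.84), while HSPE1, the partner at the common promoter, ranked 7708 (r = 0.17). The SD of HSPD1 was 0.06 in Vector and 0.01 to 0.03 in the other groups, and the correlations share the scaling of each library. The split of Vector replicates 1 to 3 from 4 to 6 was left in. HSPD1 lay between 12.70 and 12.75 in the former and 12.81 and 12.86 in the latter. HSPA9 (13.54 to 13.56, 13.76 to 13.85) and TOMM20 (11.27 to 11.30, 11.56 to 11.59) split likewise. HSPE1 overlapped (9.56 to 9.63, 9.53 to 9.73). How far the ranks rest on that split was not tested.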

How the data were processed

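Total RNA of 22 libraries was selected for poly-A and sequenced on an Illumina HiSeq2000, per the labels' protocols. CASAVA 1.8.2, TopHat, Cufflinks and DESeq are listed in the submitters' processing notes, with the builds GRCh37 and mm9 (mm9 alone for T164A). The authors deposited 1 table of normalized log2 values, and the normalization behind it is not given in the sources used here. It holds no counts, so depth is unknown.

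Of 56299 entries, 3473 had no name and 4178 shared a symbol, and both kinds were left out. A gene entered the tests where at least 4 libraries exceeded 3 (21325 genes), since 99.9% of the values of entries with a mean under 0 lay under 2.81. The 4 groups were fitted together with limma 3.58.1 (R 4.3.3), with a trend, and p was adjusted by Benjamini-Hochberg. Ratios of 2 genes were tested by exact permutation (SciPy 1.17.1), two-sided. The share of R52C-like RNA is where log ratios of 90 genes to their mean over R52C replicates 4 to 6 were densest. The limma fit and the permutation test were tested on simulated data, and the motif search on a planted motif. The estimate of the share, the subtraction and the pseudogene sums were not tested in this way. Levels of different genes were not compared, since the values are not known to be per length. Alternatives were other scalings, filters, fits, left-out libraries, subtraction and added pseudogenes, the last and a median-based share being chosen after seeing the data. The 10 genes, the gene lists and the tests were chosen with earlier results of these data known. The text names all 10 genes, up to 3 genes with the smallest p of each list in a comparison, with their values in the other comparisons. It also names some cell type markers, pseudogenes, and the 5 genes most like HSPD1. Promoter windows are from RefSeq GRCh38.p14, and no gene coordinates of the deposited build were used. The level of the targeted gene is not reported here.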

Additional observations from a re-analysis of the deposited data

Results flagged for a closer look

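Of 72 group values checked (10 genes and 8 ratios in 4 groups), 2 held a library far from the others of its group, and chance alone flags about 1 in 20. CLPP in Vector replicate 6 was 9.02, where the other 5 Vector libraries lay between 8.60 and 8.73. TOMM20 in R52C replicate 3 was 12.56, where the others lay between 12.61 and 12.63.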

How the results depend on the processing

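No paired analysis was possible because the library numbers in the titles are not shared between groups. Depth is unknown, so precision rests on the number of libraries. In NKX3.1 against Vector, subtraction of the R52C profile left 0 of the 10 genes called higher under both estimates of the share. Of the 40 other import genes still tested, 0 and 0 were called higher. Among all genes 2337 were called, 308 higher and 2029 lower of 15970. With the share from the median 2621 were called, 331 higher and 2290 lower of 15841. That share also gave 11 of the 40 called lower and 4 of the 10 genes lower, TOMM20 among them. With the first and the second estimate the differences turned to -0.42 and -0.54 for GRPEL1, -0.55 and -0.65 for HSPE1, -0.16 and -0.22 for CLPP, -0.13 and -0.15 for TRAP1, -0.16 and -0.18 for HSPD1, -0.22 and -0.27 for TOMM20, and -0.0597 and -0.0686 for LONP1. Without Vector replicates 4 to 6, 3 of the 41 were called lower, beside 3635 of all 21325 genes. Without replicates 1 to 3 TRAP1 turned to -0.0036.

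With libraries at the same median, 13 of the 41 were called higher and 15 lower in NKX3.1 against Vector, 13 lower in T164A against Vector and 8 lower in R52C against T164A. Over all 21325 genes the calls higher and lower were then 3528 and 6382, 7323 and 10333, and 10425 and 7524 in these comparisons, beside 4606 and 4129, 8652 and 8877, and 8219 and 9648 without the shift. Of the 10 genes, 1 was then called higher in NKX3.1 against R52C, 1 in NKX3.1 against T164A and 5 in R52C against T164A. Over all 21325 genes, 6839, 9750 and 10425 were called higher in the same 3 comparisons. TRAP1 turned to -0.0033 and LONP1 to -0.0383 (NKX3.1 against Vector), TIMM44 to -0.0313 and TOMM40 to -0.14 (NKX3.1 against R52C), and HSPD1 to 0.25 (R52C against T164A). Quantile normalization and added pseudogenes each gave 1 of the 10 genes higher in NKX3.1 against T164A, beside 8845 and 9014 of all 21325. The latter turned HSPD1 to 0.32 (R52C against T164A). Quantile normalization turned the ratios HSPA9 over HSPA5 to 0.0181 (NKX3.1 against R52C) and LONP1 over CLPP to -0.0855 (R52C against T164A). The cause of these changes was not tested.

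With 1 library left out, all 352 counts stayed within 1.5 times their value. Of 660 differences of the 10 genes, 6 passed the threshold and 2 lost it, and none turned. Filters and the trend of the spread changed no call of the 10 genes.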
